A study of Mus musculus with 30 samples.

Results

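Retinas of wild-type (WT) male C57BL/6J mice were compared between a high glycemic index (HGI) and a low glycemic index (LGI) diet after 1 month of feeding. The 4 HGI and the 4 LGI retinas, 8 of 30 samples in the series, were chosen by the tissue, diet and feeding length that their labels give. All 8 mice began their diet at 6 months of age and were 7 months old at collection. The starch of the HGI diet was 100% amylopectin, a branched and quickly digested starch, and that of the LGI diet was 70% amylose and 30% amylopectin. Per the study's methods the diets had equal calories, mice were pair-fed and housed singly, and they were fasted before collection, which the groups share. No retina of a mouse on ordinary chow was among the samples, so each value below is HGI relative to LGI. The 12-month groups used beside them (4 HGI and 4 LGI retinas) began feeding at 12 months of age and were 24 months old, so that feeding length and age differ together. The model is limited to males of 1 inbred strain and to whole retina, in which fewer cells of a type and less RNA per cell cannot be told apart.

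The retina is among the tissues that use most glucose for their mass. Photoreceptors convert much of it to lactate by aerobic glycolysis, Müller glia exchange lactate, glutamine and other fuels with them, and the retinal pigment epithelium and its blood vessels deliver glucose from the blood. Diets of high glycemic index raise blood glucose faster after a meal, and in aged mice they have been linked to damage of the photoreceptors and the pigment epithelium. The comparison asks which retinal transcripts differ at an early point of such a diet.

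Each library held between 16.8 and 30.5 M estimated counts. Levels are given in CPM, counts per 1 M counts of a TMM-scaled library. The 24 rod markers tested summed to between 69361 and 96239 CPM in a retina, so the labelled tissue was clear. Lens transcripts stood apart in 3 libraries, at 56.9 CPM in LGI replicate 1, 80.5 in LGI replicate 3 and 77.4 in HGI replicate 6, against 1.91 to 2.96 in the other 5. Transcripts of liver, sequenced on the same lane, came to between 0.00393% and 0.0289% of a liver library. On the first principal component, which held 50.6% of the variance, the LGI retinas stood at -40.4, 36.3, 7.06 and 24.5 and the HGI retinas at 2.80, -40.1, -21.9 and 31.7. The diets thus overlapped on it. Diet accounted for 11.7% of the squared distance between retinas, no more than labels assigned at random give on average.

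The table held 49398 genes, of which the 15054 with a mean above 1 CPM in some retina group were tested. The study's limits are an unadjusted p below 0.05 and a difference of at least 0.32 on the log2 scale. At these limits 237 genes (1.57%) passed, of which 80 were higher (0.531%) and 157 were lower (1.04%) in HGI. An unadjusted p below 0.05 in limma was reached by 404 genes, fewer than the share of 0.05 expected when no gene differs. None had an adjusted p below 0.05 in limma, where the smallest adjusted p was 0.999. With edgeR there were likewise 0, and with DESeq2 there were 2, Gm5537 and Gm4202, which are pseudogenes of Pgk1 and Ywhaz. Calls below are therefore calls at the unadjusted limits, a p without a qualifier is limma's unadjusted p, and the genes the results turn on are given with their values in all 8 retinas. The median logFC (log2 of HGI over LGI) was 0.02 over all genes, 0.53 over the genes past the limits that were higher and -0.44 over those that were lower.

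Levels of the 4 HGI retinas lay wholly above or below those of the 4 LGI retinas for 205 genes (1.36%), 84 above and 121 below. That share is below the one that random order of the retinas gives, so separation by itself marks no diet difference. Of the 237 genes past the limits, 68 were among them, 21 higher and 47 lower. Low abundance was common among the higher genes, 55 of 80 having a mean under 5 CPM in both diets, against 59 of 157 among the lower genes. By mean level, 492 of all 15054 genes tested were under 1 CPM and 3245 were between 1 and 5 CPM. Together these are a smaller share than among the higher or the lower genes. Genes past the limits that were lower included 122 protein-coding genes, and those that were higher included 51 protein-coding genes and 19 pseudogenes.

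**Figure D1:**
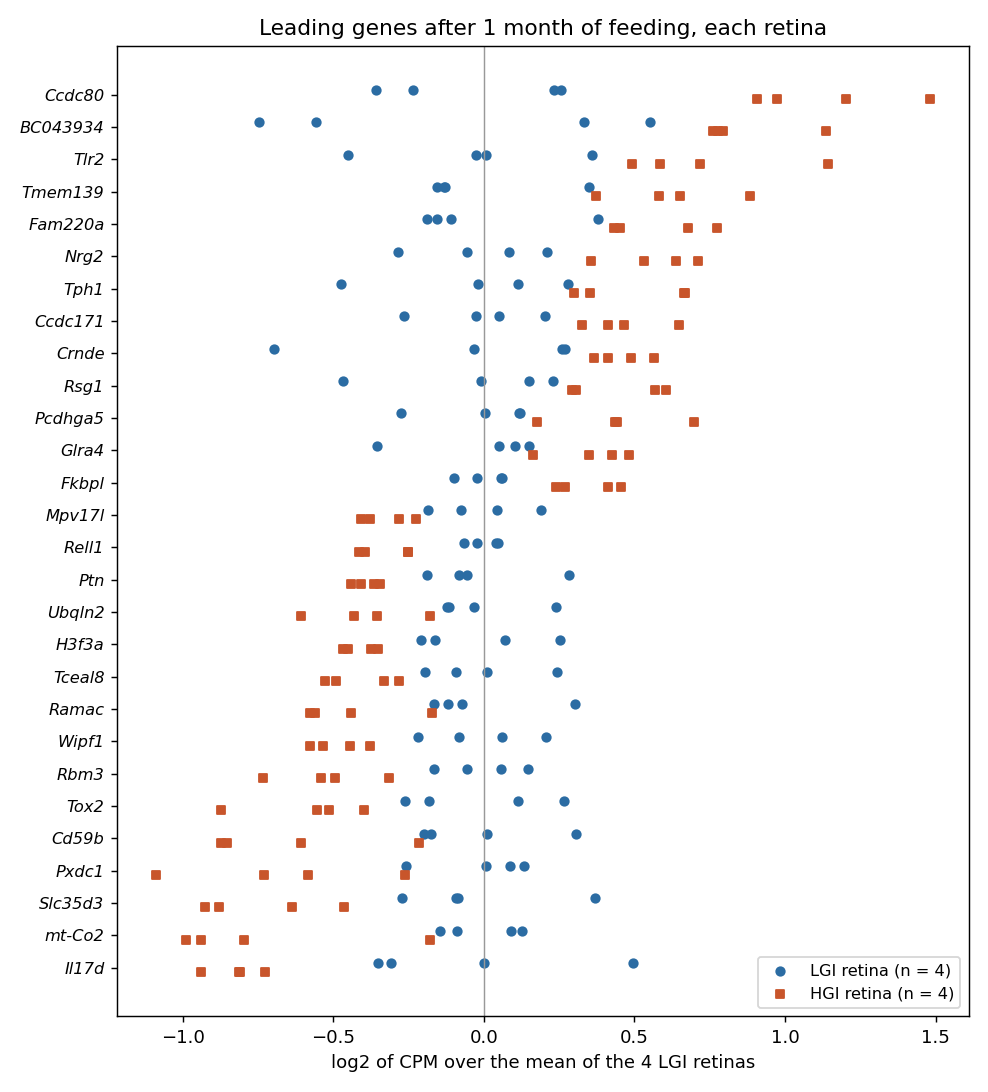
Leading named genes past the limits whose diets did not overlap, 13 higher and 15 lower in HGI. The x axis is log2 of CPM over the mean of the 4 LGI retinas, circles are LGI retinas and squares are HGI retinas; in every row the squares lie on 1 side of all circles, at some genes by a narrow gap.

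Genes that were lower in HGI retinas included several with high levels. Rbm3, which encodes an RNA-binding protein induced by cold and by mild stress, was at 193, 205, 178 and 166 CPM in the LGI retinas and at 112, 128, 132 and 149 CPM in the HGI retinas. Every HGI retina was below every LGI retina. The logFC was -0.52 ± 0.12 (SE, unadjusted p of 0.000549), and in the transcript table the 4 most abundant Rbm3 transcripts were each lower on average. Cirbp, the other cold-inducible RNA-binding protein of this kind, was chosen for comparison after its values were seen and did not pass, with a logFC of -0.22 ± 0.19.

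Il17d, a cytokine of the interleukin-17 family, was at 2.28, 3.97, 2.82 and 2.21 CPM in LGI and at 1.47, 1.71, 1.61 and 1.61 CPM in HGI retinas. Its logFC was -0.78 ± 0.18 (p of 0.000413), the second smallest p of all genes. Ptn (pleiotrophin, a heparin-binding growth factor) was at 73.6, 93.0, 72.3 and 67.1 CPM in LGI and at 60.2, 57.6, 56.4 and 59.4 CPM in HGI. Both secreted factors were among the genes chosen for having no overlap between diets, and for Ptn the logFC was -0.38 ± 0.12 (p of 0.00558).

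Regulators of transcription and RNA were also among the lower genes. Tox2, an HMG-box transcription factor, was at 45.7, 50.8, 37.2 and 35.2 CPM in LGI and at 28.8, 29.6, 23.1 and 32.1 CPM in HGI (logFC -0.57 ± 0.15, p of 0.00161). Tceal8, of the transcription elongation factor A-like family, was at 51.5, 60.4, 47.9 and 44.7 CPM against 42.1, 35.4, 36.4 and 40.6 CPM (logFC -0.40 ± 0.11, p of 0.0027). Ramac, which activates the methyltransferase of the messenger RNA cap, was at 66.9, 86.8, 64.8 and 62.7 CPM against 51.7, 47.1, 47.6 and 62.4 CPM (logFC -0.43 ± 0.13, p of 0.00394). The groups did not overlap for any of the 3, although HGI replicate 8 lay just under the lowest LGI retina for Ramac.

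H3f3a, a gene of the replacement histone H3.3, was at 643, 729.6, 531 and 547 CPM in LGI and at 472, 443, 448 and 479.6 CPM in HGI, a logFC of -0.40 ± 0.12 (p of 0.00498). Its most abundant transcript, ENSMUST00000081026, was at 335 ± 28.0 CPM (SD, n = 4) in LGI and 281 ± 30.2 CPM in HGI retinas, with overlap. Transcript ENSMUST00000161308 was at 213 ± 74.9 and 79.3 ± 32.3 CPM, without overlap. Transcript ENSMUST00000162814 was higher on average in HGI, at 43.3 ± 33.6 and 90.0 ± 47.3 CPM, but the diets overlapped and LGI replicate 2 was at 0. The division of reads between these transcripts was not tested. H3f3b, the other gene of this histone, had a logFC of -0.14 ± 0.11 and was also named after its values were seen.

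Further lower genes served protein turnover, transport and the cell surface. Ubqln2 (ubiquilin 2, a shuttle to the proteasome) was at 154, 186, 145 and 145 CPM in LGI and 123, 117, 103 and 139 CPM in HGI, with a logFC of -0.39 ± 0.12. Slc35d3, an orphan of the nucleotide-sugar transporter family, was at 2.92, 4.02, 2.93 and 2.58 CPM against 1.64, 2.00, 1.69 and 2.25 CPM, with a logFC of -0.70 ± 0.18. Cd59b, an inhibitor of the complement membrane attack complex, was at 2.00, 1.73, 1.76 and 2.45 CPM against 1.30, 1.08, 1.10 and 1.71 CPM, with a logFC of -0.60 ± 0.19. These 3 had p between 0.00134 and 0.00554, and no HGI retina reached the lowest LGI retina. Rell1, Mpv17l, Wipf1 and Pxdc1 were the other lower genes without overlap that the rule named, with logFC from -0.63 (Pxdc1) to -0.32 (Mpv17l). Eif4ebp3, a translation inhibitor, was among the 5 largest decreases (logFC -2.90 ± 1.17, p of 0.0246), at levels of at most 1.96 CPM and with overlap.

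Genes that were higher in HGI retinas were mostly at low levels. Ccdc80, a secreted protein of the extracellular matrix, had the smallest p of all genes (p of 0.000333). It was at 0.400, 0.562, 0.366 and 0.552 CPM in LGI and at 0.882, 1.08, 1.31 and 0.922 CPM in HGI retinas, a logFC of 1.14 ± 0.25. Every HGI retina was above every LGI retina.

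Tlr2, a receptor of innate immunity, was at 0.320, 0.562, 0.439 and 0.429 CPM in LGI and at 0.966, 0.656, 0.719 and 0.615 CPM in HGI (logFC 0.72 ± 0.25, p of 0.0121). Tmem139, a membrane protein, was at 0.440, 0.432, 0.439 and 0.613 CPM against 0.756, 0.623, 0.719 and 0.888 CPM (logFC 0.62 ± 0.19, p of 0.00509). The highest LGI retina lay just under the lowest HGI retina for Tmem139. Glra4, a glycine receptor subunit, was at 2.08, 2.85, 2.75 and 2.94 CPM in LGI and at 3.57, 3.71, 3.38 and 2.97 CPM in HGI, a logFC of 0.37 ± 0.15 (p of 0.0234).

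Among higher genes above 5 CPM, Fkbpl, an immunophilin-like partner of the Hsp90 chaperone, was at 5.55, 5.88, 5.27 and 5.89 CPM in LGI and at 6.80, 7.51, 7.74 and 6.66 CPM in HGI, a logFC of 0.35 ± 0.11 (p of 0.00715). Fam220a was at 20.1, 14.3, 13.9 and 13.6 CPM against 20.9, 26.4, 24.7 and 21.1 CPM, but its table holds a second gene of the same symbol with an identical sequence, and their sum did not pass (logFC 0.10 ± 0.09, p of 0.27). The remaining higher genes named by the rule were BC043934, Nrg2 (neuregulin 2), Tph1 (tryptophan hydroxylase 1), Ccdc171, Crnde, Rsg1 (a GTPase of cilium formation) and Pcdhga5, with logFC from 0.45 (Rsg1) to 0.92 (BC043934).

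Pcdhga5 belongs to the protocadherin-γ cluster, a set of cell-adhesion genes that share constant exons and give neurons their individual surface identity. It was at 6.95, 9.12, 8.42 and 9.14 CPM in LGI and at 11.4, 13.6, 11.4 and 9.50 CPM in HGI retinas, a logFC of 0.45 ± 0.17 (p of 0.0154). Of 22 genes of the γ cluster that were tested, 21 had a positive logFC and 5 were past the limits, all higher: Pcdhga5, Pcdhgb5, Pcdhgc5, Pcdhgb1 and Pcdhga9. Of all genes tested, 0.531% were past the limits and higher. The median logFC was 0.28 in the γ cluster, -0.04 over 14 genes of the α cluster and -0.05 over 21 genes of the β cluster, in neither of which any gene was past the limits. After the GC correction described below, 19 of the 22 were positive, 4 were past the limits (Pcdhgb1 no longer among them), and the median was 0.19. The γ cluster was looked at as a group after the values were seen. Summed over its genes, levels were 280, 290, 297 and 252 CPM in LGI and 306, 363, 338 and 261 CPM in HGI retinas, so that HGI replicate 8 lay within the LGI range. Because the genes share their constant exons, their counts are not independent of each other.

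Over all genes tested 1.57% were past the limits, the share to set beside each count of called list members below. None of the photoreceptor markers was called. Among 24 rod and 15 cone genes there were 0 past the limits, with median logFC of 0.11 and 0.03. The rod median was 0.046 without HGI replicate 6 and 0.24 without LGI replicate 1. Gnat1 (rod transducin) had a logFC of 0.16 ± 0.21 and Sag (arrestin) of 0.28 ± 0.16. Summed rod markers ranged from 73896 to 95152 CPM in LGI and from 69361 to 96239 CPM in HGI retinas, which overlapped over most of their range. None of the 23 visual cycle genes passed either. Neurod1, a transcription factor of photoreceptors and amacrine cells that is on neither list and was chosen after its values were seen, was called lower. It was at 409, 349.6, 296 and 329 CPM in LGI and at 219, 212, 189 and 326 CPM in HGI (logFC -0.57 ± 0.16, p of 0.00282), and HGI replicate 8 lay above LGI replicate 3.

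Among neurons, Tfap2a, a transcription factor of amacrine cells, was at 31.1, 35.0, 27.2 and 30.4 CPM in LGI and at 25.3, 22.1, 22.1 and 27.8 CPM in HGI. The logFC of Tfap2a was -0.34 ± 0.12 (p of 0.012), and HGI replicate 8 lay above LGI replicate 3. It was the only member called of 16 amacrine, 18 bipolar, 9 horizontal and 16 ganglion cell genes. Of the ganglion cell genes, 12 had a negative logFC, with a median of -0.09 that was -0.0074 without LGI replicate 2 and -0.16 without HGI replicate 5, and the summed level was 1250 to 1596 CPM in LGI and 1206 to 1381 CPM in HGI. Rbpms, the pan-ganglion-cell RNA-binding protein, was nearest to a call, with a logFC of -0.23 ± 0.09 that is under the fold limit.

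Müller glia are represented by 18 genes, of which 2 were lower and none higher, where 1.04% of all genes tested were lower. Sox9, a transcription factor that keeps the glial fate, was at 11.8, 14.3, 11.2 and 12.3 CPM in LGI and at 8.69, 9.64, 9.56 and 10.1 CPM in HGI retinas, without overlap (logFC -0.38 ± 0.13, p of 0.0095). Sox2, a stem-cell factor that adult Müller glia and some amacrine cells retain, was at 21.5, 32.4, 25.7 and 28.3 CPM against 22.0, 19.1, 19.0 and 25.2 CPM, with overlap (logFC -0.32 ± 0.15, p of 0.0416). Glul (glutamine synthetase) had a logFC of 0.01 ± 0.10, and the median of the 18 genes was 0.03. Gfap, the filament protein that rises in gliosis, was at 6.81 ± 0.36 CPM (SD, n = 4) in LGI and 5.62 ± 0.41 CPM in HGI and did not pass (logFC -0.27 ± 0.21, p of 0.21). No member of the microglia list passed (16 genes), nor of the endothelial (16), pericyte (8) or pigment epithelium (17) lists.

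For glucose use, 1 of 34 genes of glycolysis and lactate was called, against 1.57% of all genes tested. Mpc1, a subunit of the carrier that brings pyruvate into mitochondria, was at 75.8, 82.3, 65.2 and 59.8 CPM in LGI and at 56.0, 50.0, 55.0 and 61.4 CPM in HGI retinas (logFC -0.35 ± 0.12, p of 0.00934). Only HGI replicate 8 lay above the lowest LGI retina. The list as a whole had a median logFC of 0.12, with 26 of 34 genes positive and summed levels from 10314 to 15675 CPM in LGI and from 9056 to 16967 CPM in HGI. The median was 0.015 without HGI replicate 6 and 0.24 without HGI replicate 8. Slc2a1, the glucose transporter GLUT1, had a logFC of 0.17 ± 0.24, and Txnip, a glucose-induced inhibitor of glucose uptake, 0.14 ± 0.21. No gene was called among 23 of the tricarboxylic acid cycle, 26 of the side pathways of glucose (polyol, hexosamine and pentose phosphate) or 33 of insulin signaling.

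For lipids, Ppara, the nuclear receptor that drives fatty acid oxidation, was the only member called of 36 genes of fatty acid oxidation and ketone bodies. It was at 9.39, 7.52, 9.30 and 11.8 CPM in LGI and at 10.5, 12.3, 11.5 and 12.4 CPM in HGI retinas (logFC 0.33 ± 0.14, p of 0.0302), and LGI replicate 4 lay within the HGI range. Ppara lost its call in 12 of 17 refits of the data. Its target Cpt1a did not pass (logFC 0.10 ± 0.10), although 29 of the 36 genes had a positive logFC, with a median of 0.08 that was 0.0073 without LGI replicate 2 and 0.13 without LGI replicate 1. Idi1, the isopentenyl diphosphate isomerase of sterol synthesis, was the only member called of 25 sterol genes, at 105, 163, 124 and 129 CPM in LGI and 106, 93.1, 88.1 and 125 CPM in HGI (logFC -0.33 ± 0.15, p of 0.0447). Gm13502 is identical to Idi1 over 684 bases, and the sum over such copies did not pass (logFC -0.29 ± 0.15, p of 0.0761). No gene was called of 29 for fatty acid synthesis and desaturation or of 22 for lipid transport.

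Immune genes moved in both directions. B2m, the light chain of MHC class I, was at 57.1, 57.8, 48.7 and 42.0 CPM in LGI and at 42.4, 33.9, 41.0 and 35.6 CPM in HGI (logFC -0.43 ± 0.15, p of 0.00924), with a slight overlap. It was the only member called of 29 interferon-induced genes, 25 of which had a negative logFC, with a median of -0.13 that became 0.05 without LGI replicate 1. Of 25 genes of inflammatory signaling, Il17d was lower and Tlr2 was higher, as given above, and Icam1, an adhesion receptor for leukocytes, was higher at 0.959, 0.216, 0.622 and 0.491 CPM in LGI and 0.714, 1.12, 1.14 and 0.786 CPM in HGI (logFC 0.82 ± 0.38, p of 0.0489). For Icam1 the diets overlapped, and LGI replicate 1 exceeded 2 of the HGI retinas. None was called of 33 genes on a list of complement and coagulation, which does not hold Cd59b.

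The list with the highest median, before the GC correction described below, was extracellular matrix and receptors. Of its 60 genes, 48 had a positive logFC, with a median of 0.18, but none was past the limits. Its median was 0.11 without HGI replicate 6 and 0.22 without LGI replicate 3, and without HGI replicate 8 the medians of the pericyte (0.29) and pigment epithelium (0.27) lists were higher than either. Lama1 (laminin α1) was nearest, with a logFC of 0.41 ± 0.21 (p of 0.0666). Summed levels were 2781 to 3060 CPM in LGI and 2819 to 3313 CPM in HGI, so HGI replicate 8 lay within the LGI range. Grem1, an antagonist of bone morphogenetic proteins, was lower at 3.20, 2.68, 2.38 and 2.76 CPM against 1.85, 1.94, 1.56 and 2.63 CPM (logFC -0.47 ± 0.17, p of 0.0126) and was the only member called of 37 genes of that pathway.

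The other lists held at most 1 called gene each, against 1.57% of all genes tested. Angpt2, the vessel-destabilizing angiopoietin, was called of 25 genes of hypoxia and angiogenesis (logFC 0.33 ± 0.15, p of 0.0413), and Vegfa had a logFC of 0.02 ± 0.09. Atp2b3, a plasma membrane calcium pump, was called of 47 calcium genes (logFC 0.37 ± 0.17, p of 0.0474). Rpl12, a ribosomal protein gene at 3.15 to 5.15 CPM, was called of 80 ribosomal protein genes, and Fundc1, a receptor of mitophagy, of 33 genes of mitochondrial biogenesis and mitophagy, at 80.1, 123, 85.3 and 81.7 CPM in LGI and 76.7, 62.6, 66.7 and 77.4 CPM in HGI (logFC -0.37 ± 0.14, p of 0.0173). None was called of 27 immediate early genes, 20 clock genes, 32 genes of oxidative stress, 35 of heat shock and protein folding or 49 of the synapse. In all, 31 of 44 lists with at least 5 tested genes had a median above 0, as did 56.0% of all genes tested.

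**Figure D2:**
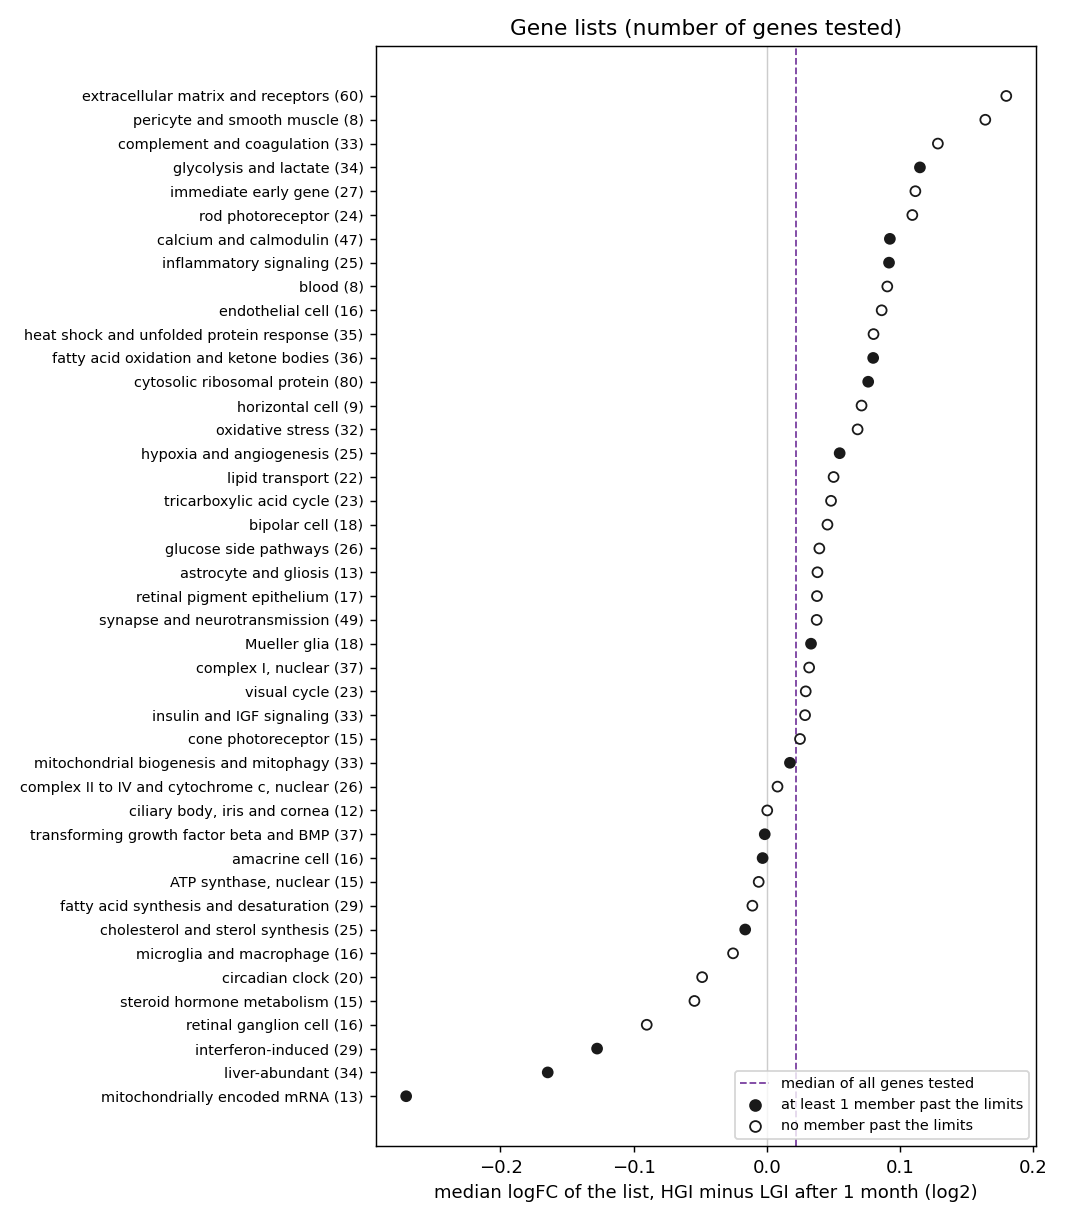
Median logFC of each gene list, HGI minus LGI after 1 month (log2), with the number of genes tested in brackets. Filled points are lists with at least 1 member past the limits and the dashed line is the median of all genes tested, 0.02. The medians run from -0.27 (mitochondrially encoded mRNA) to 0.18 (extracellular matrix and receptors); the lens list, with a median of -1.50, is not drawn.

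Mup11 and Mup20 were called lower, at logFC of -2.72 ± 0.97 and -1.54 ± 0.58. Summed over the 12 near-identical genes of its family, Mup11 had a logFC of -0.74 ± 0.89 (p of 0.42) and did not pass. They are major urinary protein genes, made by the liver and not known as retinal products, and together they stayed at or under 2.58 CPM in a retina. Of 34 liver-abundant genes tested, these 2 were past the limits and 26 had a negative logFC. Transcripts of 41 genes at least 1000 times as abundant in liver as in retina summed to 80.03, 36.6, 10.9 and 45.9 CPM in LGI and 34.2, 32.4, 26.01 and 19.4 CPM in HGI retinas. Albumin (Alb) had a logFC of -0.16 ± 0.65. The part of liver transcripts in the Mup values was not tested.

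The 13 messenger RNAs encoded in the mitochondrial genome, which specify core subunits of the respiratory chain, all had a negative logFC, with a median of -0.27. They are read from 1 circular genome in long precursors, so their levels are not independent. The median was -0.17 without LGI replicate 2 and -0.38 without HGI replicate 8. Their sum was 84165, 104802, 84207 and 98022 CPM in LGI and 87006, 65923, 70242 and 96127 CPM in HGI retinas, so that the low HGI replicates 6 and 7 set the difference while replicates 5 and 8 lay within the LGI range. Only mt-Co2 (subunit II of cytochrome c oxidase) was past the limits, at 2238, 2704, 2633 and 2324 CPM in LGI and 1423, 1248, 1291 and 2188 CPM in HGI, a logFC of -0.72 ± 0.22 (p of 0.00455). Next came mt-Nd3 (logFC -0.42 ± 0.21, p of 0.0599) and mt-Atp6 (-0.54 ± 0.27, p of 0.0644). None of 37 complex I, 26 complex II to IV or 15 ATP synthase genes in the nucleus was called, with medians of 0.03, 0.01 and -0.01.

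The nuclear genome holds copies of mitochondrial genes, and reads from identical sequences cannot be told apart. Gm28661, a pseudogene on chromosome 1, matched mt-Co2 over 681 bases without a mismatch in GENCODE M21 (GRCm38). The first 120 bases of each are shown because no capital, which would mark a base that differs, occurs in either. They lie at chrM:7013-7132 (+ strand) and chr1:24615446-24615565 (- strand).
mt-Co2: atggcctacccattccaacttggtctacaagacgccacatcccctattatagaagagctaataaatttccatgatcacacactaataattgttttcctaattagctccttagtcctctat
Gm28661: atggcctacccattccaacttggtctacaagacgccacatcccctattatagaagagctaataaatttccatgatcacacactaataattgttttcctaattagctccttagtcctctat
By contrast, mt-Co1 differs at 37 of 1545 bases from its copy Gm13340 on chromosome 2. The stretch at chrM:6501-6620 (+ strand), set beside chr2:22588355-22588474 (- strand), shows 6 of these bases in capitals.
mt-Co1: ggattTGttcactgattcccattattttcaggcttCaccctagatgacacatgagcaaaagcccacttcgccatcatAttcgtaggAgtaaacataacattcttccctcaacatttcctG
Gm13340: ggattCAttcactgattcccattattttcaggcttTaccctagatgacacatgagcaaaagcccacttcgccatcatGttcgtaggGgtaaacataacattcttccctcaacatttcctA
Gm13340 was at 2.37 to 4.91 CPM, while Gm28661 was at 8971, 9822, 7745 and 10256 CPM in LGI and 10021, 7894, 8378 and 10032 CPM in HGI retinas, more than mt-Co2 itself. The sum of mt-Co2 and Gm28661 was 11208, 12526, 10378 and 12580 CPM in LGI and 11444, 9142, 9669 and 12220 CPM in HGI. The groups overlapped and the sum did not pass (logFC -0.15 ± 0.13, p of 0.25).

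Copies of full length exist for other mitochondrial genes too. Gm28437, identical to mt-Co3 over 783 bases, was itself called higher (logFC 0.44 ± 0.17, p of 0.0196), at 2047, 2563, 2156 and 3469 CPM in LGI and 4124, 2896, 2993 and 3719 CPM in HGI. Its sum with mt-Co3 had a logFC of -0.15 ± 0.15, of the opposite sign. For mt-Atp6 and Gm10925, identical over 678 bases, the sum had a logFC of -0.23 ± 0.17, against -0.54 for mt-Atp6 alone. For mt-Co1 the logFC was -0.14 alone and -0.15 in the sum. With counts summed over copies, all 13 mitochondrial genes kept a negative logFC, the median was -0.22 and none was past the limits.

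**Figure D3:**
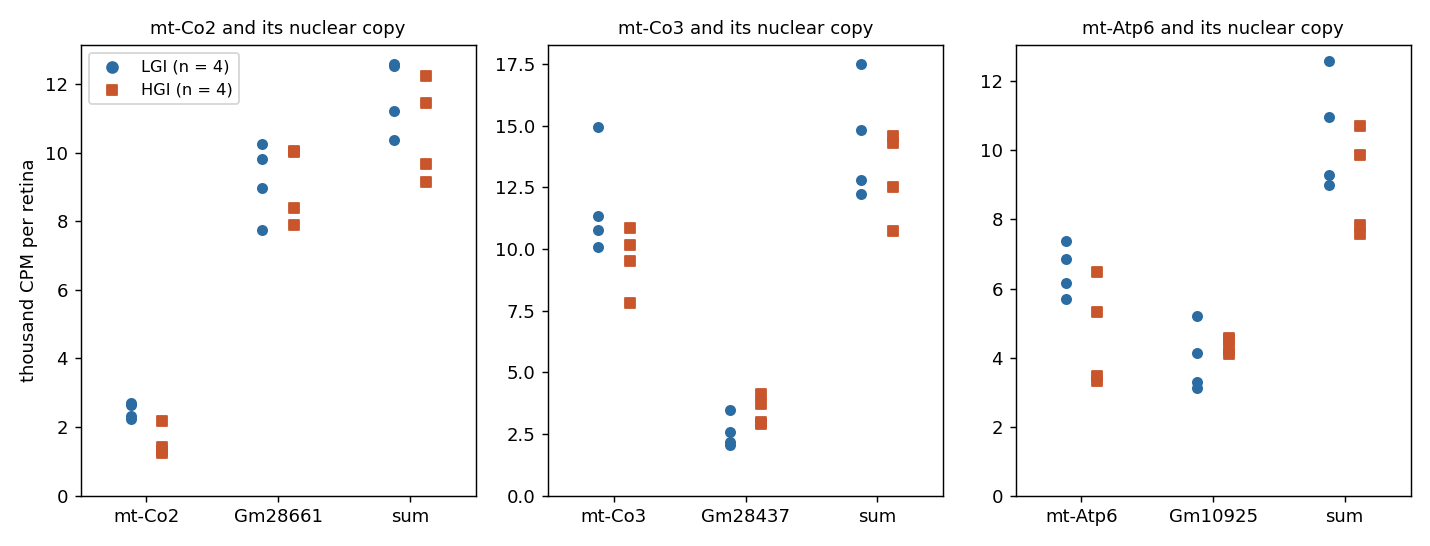
Levels of 3 mitochondrial genes, of the nuclear pseudogene identical to each, and of their sum, in CPM divided by 1000 for each retina (circles LGI, squares HGI, n = 4 each). mt-Co2 alone separates the diets, and the sum with Gm28661 does not, running from 10378 to 12580 CPM in LGI and from 9142 to 12220 CPM in HGI.

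Copies of this kind were common among the called genes. A copy at least 97% identical over at least 200 bases and 80% of the shorter transcript was found for 1063 of the tested genes (7.06%) and for 46 of the 237 genes past the limits (19.4%). Among higher genes 24 of 80 had one, and among lower genes 22 of 157. Of the 28 called genes with a logFC beyond 1 in size, 20 had a copy. After counts were summed over each family of copies, 10 of the 46 were still past the limits in the same direction, among them Rbm3 (logFC -0.52 ± 0.12), H3f3a (-0.42 ± 0.13) and Ramac (-0.33 ± 0.11). Rbm3 averaged 158 CPM beside 0.798 for its most abundant copy, and Ramac 61.2 CPM beside 7.39 for Gm9830.

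Most of the largest logFC values among called genes belonged to these copies, though not that of Eif4ebp3. Gm8783 and Gm15801, processed pseudogenes on chromosome 19, were listed at 0 in all 4 LGI retinas and at 1.18, 1.87, 1.56 and 0 CPM in HGI retinas, with the same value in each retina for both. They are shown with their parent Ptp4a1, a protein tyrosine phosphatase, because no base differs in the 522 they share, of which the first 120 (coding) bases follow. The pseudogenes lie at chr19:40622460-40622579 (+ strand) and chr19:40560939-40561058 (- strand) of GRCm38.
Ptp4a1: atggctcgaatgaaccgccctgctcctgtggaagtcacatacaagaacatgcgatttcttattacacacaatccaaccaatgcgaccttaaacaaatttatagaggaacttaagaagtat
Gm8783: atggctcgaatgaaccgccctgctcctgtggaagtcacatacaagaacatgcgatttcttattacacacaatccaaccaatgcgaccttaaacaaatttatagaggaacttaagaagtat
Gm15801: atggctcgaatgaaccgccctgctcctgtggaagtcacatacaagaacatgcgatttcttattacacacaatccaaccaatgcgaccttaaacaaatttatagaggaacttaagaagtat
No fold is given for them, since the LGI group is at 0. Summed over the family of 6 genes, levels were 120.3 to 162 CPM in LGI and 94.6 to 150.1 CPM in HGI retinas, and the logFC was -0.28 ± 0.16 (p of 0.11), of the opposite sign.

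Gm8464 and Gm4750, pseudogenes on the X chromosome, differ at 1 of 2200 bases, shown in capitals at the end of this stretch of their transcripts.
Gm8464: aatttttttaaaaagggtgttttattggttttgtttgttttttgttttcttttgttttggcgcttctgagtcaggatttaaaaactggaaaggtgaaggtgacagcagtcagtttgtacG
Gm4750: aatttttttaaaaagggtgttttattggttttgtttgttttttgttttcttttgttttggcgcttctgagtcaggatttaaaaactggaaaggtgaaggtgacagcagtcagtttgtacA
Gm8464 was called lower, at 4.28, 1.81, 2.38 and 3.01 CPM in LGI and 1.76, 0, 0.846 and 1.47 CPM in HGI. Gm4750 was called higher, at 4.28, 0, 0.659 and 0 CPM in LGI and 1.30, 2.59, 1.31 and 1.71 CPM in HGI. Their logFC were -2.73 ± 0.98 and 2.87 ± 1.03, and that of their sum was -0.38 ± 0.34 (p of 0.28). Gm9493, Gm10108 and Gm9845, among others, also had a sum with a logFC of the opposite sign. Values of single genes with an identical copy are therefore uncertain.

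**Figure D4:**
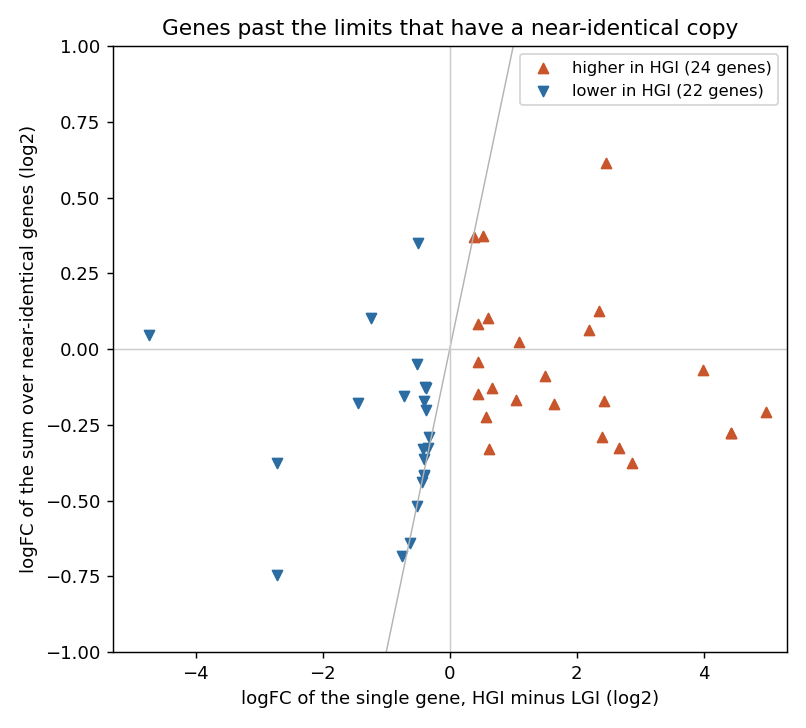
The 46 genes past the limits with a near-identical copy. The x axis is the logFC of the single gene and the y axis, on a wider scale, the logFC of the counts summed over its family (log2); the slanted line marks equal values, on which a few lower genes such as Rbm3 lie, while most higher genes (upward triangles) lie near or below 0 on the y axis.

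The size of the diet difference followed the base composition of genes. Protein-coding genes were put in 5 bins of equal size by GC content. Those in the lowest bin (31.0% to 43.6%) had a median logFC of -0.09 and those in the highest bin (55.2% to 70.4%) of 0.14, with medians of -0.02, 0.03 and 0.09 between them. The lowest bin held 62 lower and 1 higher gene past the limits, and the highest bin 7 and 11. The median GC content was 43.6% for lower genes, 51.2% for higher genes and 48.9% for all genes. Between 5 such bins of transcript length median logFC differed by less than 0.01, while the lower genes past the limits numbered 33 in the shortest bin and 8 in the longest.

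The same gradient separated retinas within a diet. As the median level of the lowest GC bin minus that of the highest (log2, relative to the mean of the 8 retinas), LGI retinas 1 to 4 stood at -0.65, 0.62, 0.12 and 0.39. HGI retinas 5 to 8 stood at 0.03, -0.70, -0.40 and 0.55. The diets overlapped fully, and the retinas lowest on it, LGI replicate 1 and HGI replicate 6, were also the lowest on the first principal component. With each library's curve over GC content subtracted, 252 genes were past the limits, 148 of them lower, and 154 of the 237 were among them, 101 of the lower and 53 of the higher genes. The median of the mitochondrial messenger RNAs became -0.11. The medians of the other lists are given above without this correction. What the gradient comes from was not tested.

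**Figure D5:**
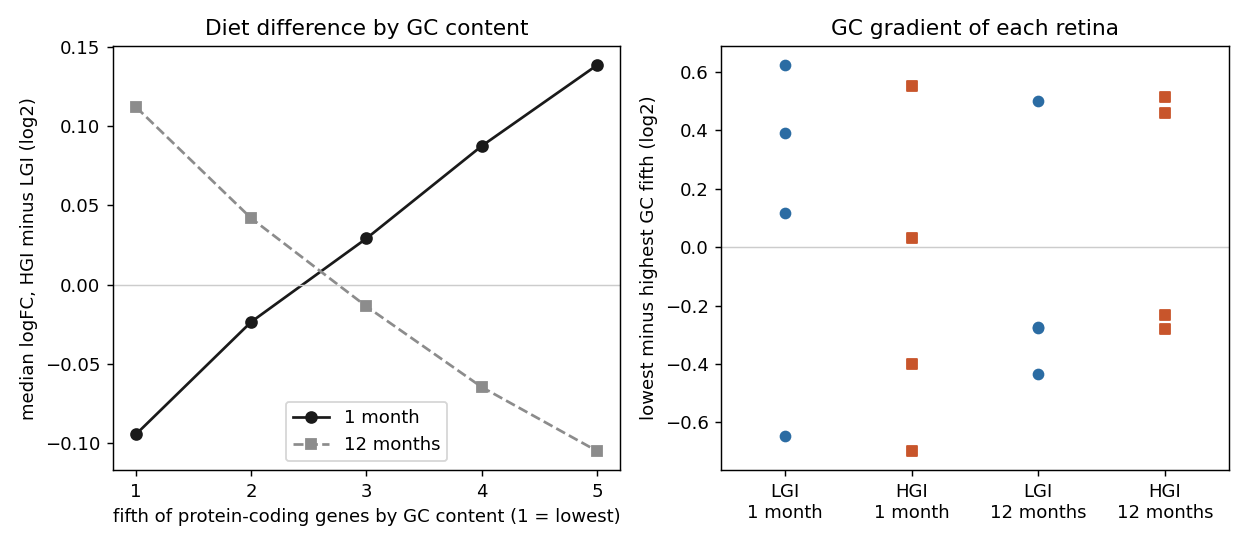
Left, median logFC of protein-coding genes in 5 bins of GC content, at 1 month (circles) and at 12 months (squares), in log2. Right, the level of the lowest minus the highest GC bin in each retina (log2). The 1-month line rises from -0.09 to 0.14 and the 12-month line falls from 0.11 to -0.10, and the retinas of each diet spread over both sides of 0 in every group.

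Against the same diets after 12 months, which used other animals, most called genes had the opposite sign. At 12 months 646 genes (4.29%) were past the limits, with 0 at an adjusted p below 0.05 (smallest 0.607). Of the 237 genes called at 1 month, 189 had a logFC of the opposite sign at 12 months, as had 68.8% of all genes tested, and 63.3% after the GC correction. The genes called at both lengths numbered 77, of which 61 were lower at 1 month and higher at 12, 10 were higher and then lower, and 6 kept their direction. The test of the difference between the lengths passed the limits for 1327 genes (8.81%), with 0 at an adjusted p below 0.05 (smallest 0.293).

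Single genes show what this looks like. Il17d had a logFC of -0.78 at 1 month and 0.60 at 12 months (p of 5.94e-05 for the difference), Tox2 of -0.57 and 0.73 (p of 2.38e-05), Ubqln2 of -0.39 and 0.52 (p of 7.11e-05) and Ptn of -0.38 and 0.48 (p of 0.000113). Each was chosen for a small p and no overlap at 1 month, where it was lower in all 4 HGI retinas. The p for the difference uses the same 1-month values and is therefore biased low. At 12 months each was higher in all 4 HGI retinas, and the adjusted p for the difference was 0.293. Sox9 (-0.38 and 0.32) and B2m (-0.43 and 0.46) also had unlike signs. Tlr2 is among the 6 that kept their direction, with logFC of 0.72 and 0.70 and no overlap at either length (p of 0.96 for the difference). Cd59b, Pxdc1 and Ccdc80 had 12-month logFC between -0.17 and -0.09, none past the limits.

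How many genes passed the limits rested on single retinas. Without LGI replicate 1 there were 838 and without HGI replicate 8 there were 784, whereas without HGI replicate 6 there were 152 and without HGI replicate 7 there were 128. Without the 3 retinas with lens transcripts there were 604, 343 higher and 261 lower, of which 106 were among the 237. Ccdc80, Il17d, Rbm3, Slc35d3, Tox2, Tmem139, Cd59b and Wipf1 were past the limits in the same direction in each of the 16 to 18 refits at the same limits that tested them, out of 51 called genes chosen by the naming rule. They were named for a small p and no overlap in the same retinas. The refits reuse those retinas, so a kept call is not independent support. The share kept among all 237 called genes is not given. Ccdc80 was under the filter on low levels without HGI replicate 7, and Tmem139 with the 8 retinas alone. Among called list members, the call was lost in 12 of 17 refits for Ppara and 11 of 17 for Angpt2 and Rpl12. It was lost in 10 of 17 for Atp2b3, 10 of 18 for Idi1 and 9 of 16 for Icam1. Sox2 lost it in 8 of 17 and Mpc1 in 5 of 17. For Tfap2a, Fundc1, B2m, Sox9, Tlr2, Grem1, mt-Co2, Mup11 and Mup20 it was lost in 1 to 4 refits.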

How the data were processed

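RNA of liver and retina was sequenced from stranded poly(A) libraries, and per the study's methods the reads were assigned to Ensembl transcripts with kallisto and summed to genes with tximport. The deposited values used here are estimated counts per gene and per transcript, which the authors did not normalize; they were rounded to whole numbers before testing. A deposited normalized table, read as a signal because it holds the authors' gene counts times a constant per sample, served only as an alternative choice of genes, and the liver table served only to find transcripts abundant in liver. The transcript table held 141450 transcripts, and 2.08% to 3.07% of its counts in a library lay outside the gene table.

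Genes with a mean above 1 CPM in at least one of the 4 retina groups were kept. Counts were scaled by TMM (edgeR 4.0.16) and fitted with voom in limma 3.58.1 (R 4.3.3), with 1 mean for each diet and feeding length over all 16 retinas, so that the groups share an estimate of the spread. Adjusted p-values are Benjamini-Hochberg values over all genes tested. Log2 fold changes (logFC) and their standard errors come from this fit, and CPM values are on the TMM-scaled library sizes. The labels number the retinas but do not state that each came from its own animal, so p-values measure the spread between these samples. No pair of retinas agreed within sampling noise, the smallest chi-square per degree of freedom between a pair being 9.17.

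The members and gene lists were chosen with earlier results of these data known. Genes were named by rule: from the genes past the limits without overlap between diets, the 15 of lowest unadjusted p in either direction (or all, where fewer), leaving aside unnamed gene models, Rik genes and pseudogenes; the 5 largest fold changes in each direction; the 13 mitochondrial messenger RNAs; up to 4 members past the limits in each list; and the 3 largest positive and negative weights of the first component. Sequences, gene types, GC content and copies came from GENCODE M21 (GRCm38), while the labels name GRCm39 for the counts, and 15036 of the tested genes (99.9%) were matched by gene ID. Copies were found with blastn 2.17.0 at 97% identity over 200 bases and 80% of the shorter transcript. Curves over GC content used 20 bins and genes above 10 CPM.

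Results were recomputed with DESeq2 1.42.0, the quasi-likelihood test of edgeR, size factors, no filter, the 8 retinas alone, 1 surrogate variable (sva 3.50.0), quality weights, a fold limit of 1.5, the authors' gene choice and each retina left out. Chosen after seeing the data were the sums over copies, the GC correction, protein-coding genes alone and leaving out the 3 retinas with lens transcripts above 50 CPM. The fit and the GC correction were tested on simulated data. Intervals and p-values do not cover the division of reads between copies.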

Additional observations from a re-analysis of the deposited data

Results flagged for a closer look

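In groups of 4 retinas, 20 of the 228 groups of values screened held a retina that lay far from the other 3 (by Dixon's test at its 95% critical value), where chance gives about 1 in 20. Among HGI retinas, replicate 8 stood apart for BC043934 (1.81 CPM), mt-Nd6 (45.1 CPM) and the summed skeletal muscle transcripts (14.6 CPM). Replicate 7 stood apart for Gm9493 (0.296 CPM), replicate 5 for Mup11 (0 CPM) and replicate 6 for the summed lens transcripts (77.4 CPM). Among LGI retinas, replicate 1 stood apart for 8 values. These were Fam220a (20.1 CPM), Gm4750 (4.28 CPM), Gm10108 (1.48 CPM), Gm10698 (5.83 CPM), Gm9774 (0 CPM), Rpl10a-ps1 (76.03 CPM), the summed rod markers (95152 CPM) and the summed ribosomal protein genes (12001 CPM). Replicate 2 stood apart for Fundc1 (123 CPM), mt-Nd3 (2613 CPM), the summed ganglion cell markers (1596 CPM), the genes of mitochondrial biogenesis and mitophagy (2738 CPM) and those of the synapse (10142 CPM), and replicate 4 for Tmem139 (0.613 CPM).

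For 8 named genes every HGI retina lay on one side of every LGI retina after 1 month and on the other side after 12 months. All 8 had been named for lack of overlap at 1 month, and most of all genes tested had opposite signs at 1 and 12 months. The share of all genes with such a switch is not given here. The logFC at 1 month minus that at 12 months was -1.38 for Il17d, -1.30 for Tox2, -0.81 for Tceal8, -0.87 for Ramac, -0.90 for Ubqln2, -0.73 for Mpv17l, -0.86 for Ptn and 0.76 for Glra4. In the test of this difference in limma the smallest adjusted p over all genes was 0.293. Feeding length and age cannot be told apart in it.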

How the results depend on the processing

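The count of genes past the limits was 237. It was 1066 with no filter on low counts, 2793 with quality weights (1856 higher, 937 lower), 71 at a fold limit of 1.5, 604 without the 3 retinas with lens transcripts, and 128 to 838 with each retina left out. It was between 162 and 299 in the other alternatives, where the surrogate variable gave 153 higher and 146 lower genes. At an adjusted p below 0.05 there were 0 genes in limma, 2 with DESeq2, 1 with quality weights (B020004C17Rik), and 0 to 1 with each retina left out (Gm4202 without HGI replicate 8). For the difference between the feeding lengths the count was 1327, or 2082 with no filter and 896 to 2504 with each retina left out, and the surrogate variable gave 270 genes at an adjusted p below 0.05. The first component held 50.6% of the variance, or 41.2% with the 500 most variable genes, 65.9% with genes over 10 CPM, 31.6% after the GC correction and 47.7% to 54.3% with each retina left out. Diet accounted for 11.7% of the squared distance, or 9.36% to 22.7% with each retina left out. List medians below 0 numbered 13 of 44, or 23 with the surrogate variable and 9 to 25 with each retina left out. The lens list has no value without the 3 lens retinas.

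Among the genes named by rule, the logFC changed sign with counts summed over copies for Gm9493 (0.045), Gm4750 (-0.38), Gm8783 and Gm15801 (-0.28), Gm10108 (-0.21), Gm9845 (-0.069) and Gm10698 (-0.11). After the GC correction it did so for mt-Cytb (0.029) and mt-Nd4l (0.048). Other called genes also changed sign in the sum over copies, among them Gm28437 (-0.15) and Sms-ps (-0.13). With the surrogate variable the logFC changed sign for mt-Nd4l (0.035) and Gm10698 (-0.26). For Gm5931 it was -0.22 with edgeR, -0.26 with DESeq2, -1.28 with quality weights and -0.57 without the lens retinas. With each retina left out the logFC ran from -1.60 to 1.93 for Gm5931, from -3.84 to 0.95 for H3f3c, from -0.14 to 0.0093 for mt-Nd4l, from -0.74 to 2.57 for Gm10698 and from -2.73 to 1.41 for Gm9774. The cause was not tested for any of these. Of the 51 called genes of the naming rule, 8 kept their call in each refit at the same limits that tested them. The fold limit of 1.5 is not among these refits. All 8 genes had been named for a small p without overlap in the same retinas. No paired analysis was possible because the replicate numbers differ between all groups.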
